A study of Mus musculus with 8 samples.

Results

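The genes that build and adjust cardiac myosin, the motor protein of the thick filament, were followed in hearts with and without histone deacetylase 3 (HDAC3). They are 9 of the 19933 genes measured: the heavy chains Myh6, Myh7 and Myh7b, the light chains Myl2, Myl3, Myl4 and Myl7, the light chain kinase Mylk3, and Mybpc3, which encodes cardiac myosin-binding protein C. The rule that chose them names the genes and uses no measured value, but it was written with earlier results of these data known. Total RNA came from 8 frozen whole hearts, and the donors were C57BL/6 males, 6 weeks old and kept on normal chow. Each heart was hybridised to 1 Affymetrix Mouse Gene 1.0 ST array. In 4 mice the genotype is WT and in 4 it is MCH3-KO, called KO here, in a series described as hearts deficient in HDAC3. The labels do not spell out this abbreviation, nor do they name the promoter or the heart cells in which the gene was removed.

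Myosin II is a hexamer of a pair of heavy chains, which split ATP and pull on actin, and light chains that stiffen the lever arm of each head. The adult mouse ventricle uses mainly alpha heavy chain (Myh6), and the beta chain (Myh7) is its slower fetal counterpart. Ventricles use the regulatory light chain Myl2 and the essential light chain Myl3, while atria use Myl7 and Myl4 in the same positions. Mylk3 phosphorylates the regulatory light chain, and myosin-binding protein C tethers heads to the filament and sets how readily they reach actin.

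Each of the 3 heavy chain genes carries a microRNA in its own sequence, and the mature strands are shown because the host genes are compared below with these microRNA genes. They are given 5′ to 3′ from RefSeq (GRCm38.p6), with the seed, bases 2 to 8, in capitals. The first lies at chr14:54949072-54949093 on the minus strand within Myh6, the second at chr14:54975710-54975731 on the minus strand within Myh7, and the third at chr2:155622893-155622913 on the plus strand within Myh7b.
mmu-miR-208a-3p: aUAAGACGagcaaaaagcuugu
mmu-miR-208b-3p: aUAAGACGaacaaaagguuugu
mmu-miR-499-5p: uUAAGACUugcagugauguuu
The strands within Myh6 and Myh7 share their seed, and 19 of their 22 positions are identical. The strand within Myh7b shares 6 of the 7 seed positions with that of Myh6. In the RefSeq gene order of chromosome 14, Myh6 and Myh7 are neighbours, with Mir208a and Mhrt listed between them.

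Promoters are shown for Myh7b and Mybpc3, genes with lower signal in KO hearts, and for the atrial light chain gene Myl7, which did not pass the test and, like Myl3, holds matches to 3 of the searched motifs. Each is the 250 bases before a RefSeq start (GRCm38.p6), read 5′ to 3′ on the gene's strand: chr2:155610993-155611242 (plus) for Myh7b, chr2:91117894-91118143 (plus) for Mybpc3 and chr11:5898783-5899032 (minus) for Myl7. Capitals mark the matches.
Myh7b: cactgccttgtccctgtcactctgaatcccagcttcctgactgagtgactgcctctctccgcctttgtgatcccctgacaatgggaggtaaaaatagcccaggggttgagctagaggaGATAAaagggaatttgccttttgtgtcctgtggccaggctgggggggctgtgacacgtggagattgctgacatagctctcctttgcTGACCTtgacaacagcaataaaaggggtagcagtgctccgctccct
Mybpc3: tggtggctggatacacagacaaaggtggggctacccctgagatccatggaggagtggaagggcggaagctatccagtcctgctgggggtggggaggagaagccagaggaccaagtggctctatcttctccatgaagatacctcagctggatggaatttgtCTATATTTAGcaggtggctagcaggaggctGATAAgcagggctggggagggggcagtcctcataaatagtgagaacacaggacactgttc
Myl7: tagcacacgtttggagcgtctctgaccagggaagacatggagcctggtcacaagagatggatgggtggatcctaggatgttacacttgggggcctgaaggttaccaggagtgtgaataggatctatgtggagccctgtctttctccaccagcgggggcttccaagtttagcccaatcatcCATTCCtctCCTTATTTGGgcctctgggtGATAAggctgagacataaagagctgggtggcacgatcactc
The motifs were searched on both strands in the same window of 32851 promoters. The letters CATTCC, the core that TEAD factors bind, were in 12.6% of all promoters and in those of 5 of the 9 myosin genes (Myh6, Myh7, Myl3, Myl7 and Mylk3). GATAA, bound by GATA factors, was in 22.6% of all and in 6 of the 9 (Myh7b, Myl2, Myl3, Myl7, Mylk3 and Mybpc3). AGGTCA, the half-site of thyroid hormone and other nuclear receptors, was in 14.0% of all and in Myh7b and Myl2. The CArG box of serum response factor was in 1.47% of all and in Myl3 and Myl7, and the MEF2 site in 2.92% of all and in Mybpc3. In Myl7 the CATTCC, CArG and GATAA matches begin 70, 61 and 41 bases before the start and do not overlap. Some genes have several listed starts, 12 for the 9 genes, and a gene counts where any of its windows holds the motif. The shares of all promoters are counted per window instead, which favours the myosin genes with several starts. Whether the listed starts of Myl2 and Myl4 are those used in the heart was not tested, and the counts include both genes. A match describes the sequence and shows no binding.

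The labels were checked first. Hdac3 (transcript cluster 10458461) was 10.14, 10.04, 10.20 and 10.04 in WT hearts and 8.59, 8.59, 8.59 and 8.50 in KO hearts (log2 intensity, replicates 1 to 4, the order used throughout), a fall of 1.54 (SE 0.05, Benjamini-Hochberg adjusted p = 9.19e-08 in limma). Cardiac actin Actc1 averaged 13.50 in WT and 13.46 in KO hearts and cardiac troponin T Tnnt2 averaged 13.30 and 13.31, so the heart label holds in both groups. Array medians lay between 54.1 and 56.5 intensity units. WT replicate 4 stood apart in some atrial genes. Nppa, the atrial natriuretic peptide gene, read 12.55, 12.56, 12.37 and 11.25 in WT and 12.76, 12.85, 12.56 and 12.59 in KO hearts. Its difference was 0.51 with all arrays and 0.20 without WT replicate 4 (adjusted p = 0.178 and 0.140 in limma). For Myl4, Myl7 and Mybphl, differences are therefore given with and without this array.

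Among the cardiac myosin genes, 1 large fall was found in KO hearts, that of the heavy chain gene Myh7b, beside small falls of Myl2 and Mybpc3. Of the 9 genes, 3 fell (Myh7b, Myl2 and Mybpc3), 0 rose and 6 did not pass the test at an adjusted p of 0.05 (limma). Across all 14950 genes tested 24.6% passed, 13.9% lower and 10.8% higher in KO, so a count of 3 in 9 is near the background. The groups were fully separated, with no overlap of KO and WT hearts, for 6 of the 9 genes, against 28.6% of all genes tested and 54.4% of the 90 genes between 12 and 13 on the log2 scale in WT, where 4 of the 9 lie. The difference was negative for 7 of the 9, and its median was -0.16 against -0.01 over all genes tested. All 9 genes were above the filter on dim genes, and each was read by 1 transcript cluster. The count of 3 was not stable: it was 1 without WT replicate 1 (20.5% of all genes passing), KO replicate 1 (19.2%) or KO replicate 2 (20.3%), Myh7b being the gene left in each case, and 5 without WT replicate 4 (22.3%). Variances modelled on intensity and made robust gave 6 (26.6% of all genes), array weights 5 (30.3%) and a replicate block 1 (22.6%). Mybphl level as a covariate, an alternative chosen after seeing the data, gave 5 (24.0%). With Nppa level as a covariate, chosen likewise, only Myh7b and Myl7 passed, and Myl2 and Mybpc3 did not (20.3% of all genes passing).

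**Figure D1:**
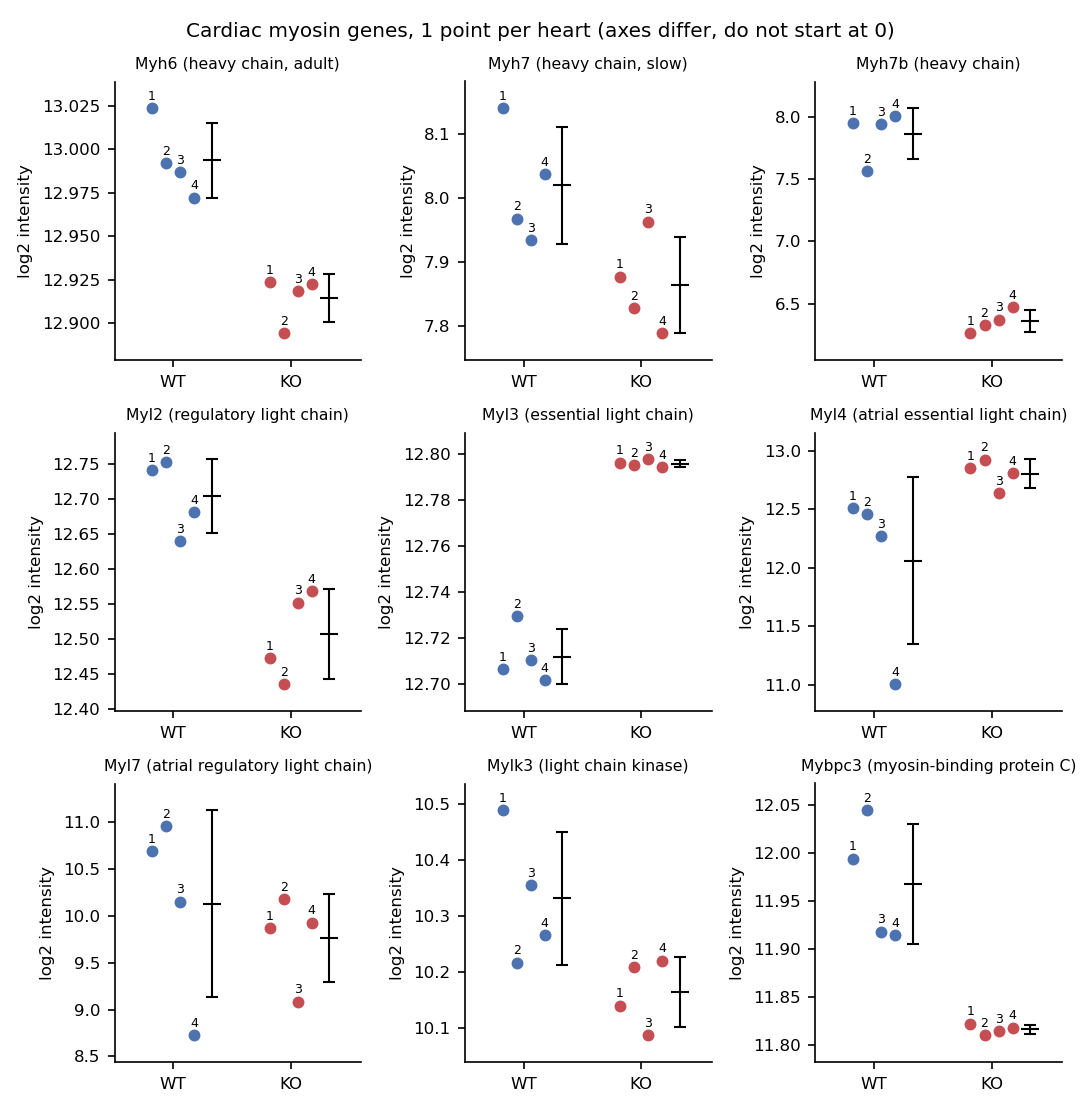
Log2 intensity of the 9 myosin genes in each heart, WT in blue and KO in red, with the replicate number above each point and the mean and SD (n = 4) as black bars. Axes differ between genes and do not start at 0: Myh7b drops from 7.86 to 6.36, while the shifts of Myh6 and Myl3 span less than 0.1, and WT replicate 4 is the lowest point for Myl4 and Myl7.

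**Figure D2:**
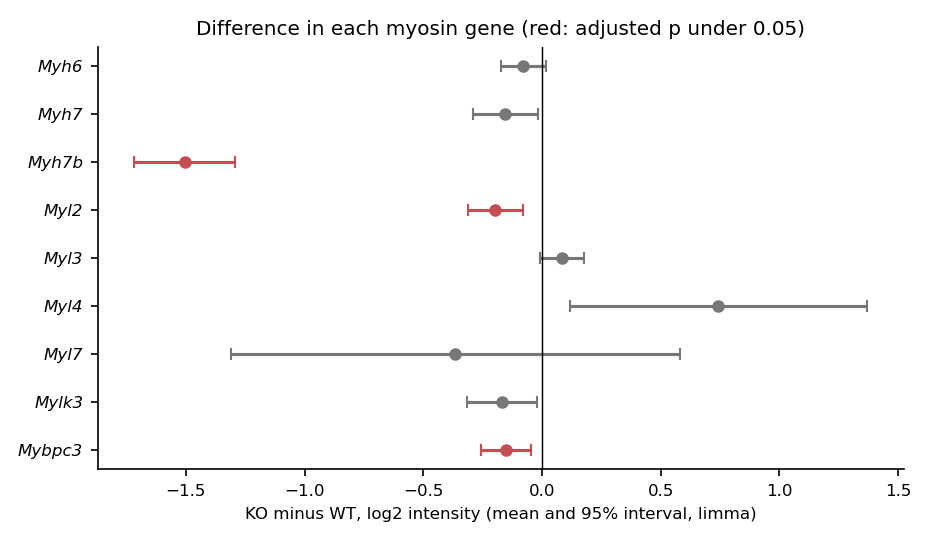
KO minus WT difference of each myosin gene on the log2 scale, with 95% intervals from limma (n = 4 per group) and genes past an adjusted p of 0.05 in red. Myh7b stands at -1.51, Myl2 at -0.20 and Mybpc3 at -0.15, and the intervals of the atrial genes Myl4 and Myl7 are the widest.

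Among the heavy chains, the large difference was in Myh7b, an ancient slow-type myosin gene known chiefly as the host of Mir499. Myh7b (transcript cluster 10477673) read 7.95, 7.56, 7.94 and 8.01 in WT hearts and 6.26, 6.33, 6.37 and 6.47 in KO hearts. Every KO heart was more than 1 log2 unit below the lowest WT heart. The means were 7.86 ± 0.20 and 6.36 ± 0.09 (SD, n = 4), so Myh7b fell by 1.51 in log2 units (SE 0.09, limits -1.72 and -1.30 at 95%), which is 2.84-fold lower, to 35.2% of WT (adjusted p = 4.04e-06 in limma). The gene passed in 19 of 19 alternatives, with differences from -1.61 to -1.35. The WT spread came mostly from replicate 2, without which the difference was -1.61 (adjusted p = 4.97e-07 in limma).

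Myh6 (transcript cluster 10419900), the main adult heavy chain, was among the brightest genes on the array, at rank 15 by WT level. It read 13.02, 12.99, 12.99 and 12.97 in WT and 12.92, 12.89, 12.92 and 12.92 in KO hearts. The groups did not overlap, yet the difference was small, -0.08 (SE 0.04, 95% interval -0.17 to 0.02), and did not pass (adjusted p = 0.219 in limma). Quantile normalisation gave -0.12 (adjusted p = 0.0434 in limma) and a robust intensity trend 0.0249, the 2 of 19 alternatives in which Myh6 passed.

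Myh7 (cluster 10419934), the fetal beta chain and a usual marker of a stressed mouse heart, showed no higher signal in KO hearts. It read 8.14, 7.97, 7.93 and 8.04 in WT and 7.88, 7.83, 7.96 and 7.79 in KO hearts. KO replicate 3 lay within the WT range and the other KO hearts below it. The difference was -0.16 (SE 0.06, 95% interval -0.29 to -0.02) with an adjusted p of 0.0948 in limma, and it passed in 0 of 19 alternatives. Within each array, Myh7 minus Myh6 moved by -0.08 between the groups and the values overlapped, whereas Myh7b minus Myh6 moved by -1.43 with no overlap. Myh6 lies near the top of the array's range, a limit on both of these comparisons that is described below.

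Of the ventricular light chains, Myl2 fell by a small amount and Myl3 did not pass. Myl2 (cluster 10525343), the regulatory light chain, read 12.74, 12.75, 12.64 and 12.68 in WT and 12.47, 12.44, 12.55 and 12.57 in KO hearts. All KO hearts were lower, and Myl2 fell by 0.20 (SE 0.05), to 87.2% of WT (adjusted p = 0.0196 in limma). It passed in 14 of 19 alternatives. The call was lost with a replicate block (adjusted p = 0.0572 in limma), with Nppa level as a covariate (also 0.0572), and without WT replicate 1 (0.0542), KO replicate 1 (0.0635) or KO replicate 2 (0.0632).

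Myl3 (cluster 10589602), the essential light chain of the ventricle, read 12.71, 12.73, 12.71 and 12.70 in WT and 12.80, 12.80, 12.80 and 12.79 in KO hearts. All KO hearts were higher, and they differed from each other with an SD of only 0.0014, but the difference of 0.08 (SE 0.04) did not pass (adjusted p = 0.179 in limma). It passed in 1 of 19 alternatives, the robust intensity trend (adjusted p = 0.0152 in limma), and quantile normalisation cut it to 0.02 (adjusted p = 0.735). Within arrays, Myl2 minus Myl3 lay between -0.07 and 0.03 in WT and between -0.36 and -0.23 in KO hearts. This untested difference between the chains shifted by -0.28 with no overlap of the groups.

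Mybpc3 (cluster 10473814) read 11.99, 12.04, 11.92 and 11.91 in WT and 11.82, 11.81, 11.81 and 11.82 in KO hearts. The KO hearts were nearly identical and all below the WT hearts. Mybpc3 fell by 0.15 (SE 0.05), to 90.0% of WT (adjusted p = 0.0432 in limma), and this call is the weakest of the 3. It passed in 8 of 19 alternatives and in 1 of 8 fits with an array left out, the one without WT replicate 4, and its adjusted p ranged up to 0.0995 in the others. It was lost as well with quantile normalisation (-0.10, adjusted p = 0.128 in limma), no dim filter (0.0675), the replicate block (0.0818) and Nppa level as a covariate (0.0503).

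Mylk3 (cluster 10580349), the cardiac kinase of Myl2, read 10.49, 10.22, 10.36 and 10.27 in WT and 10.14, 10.21, 10.09 and 10.22 in KO hearts. The groups overlapped at a single point, KO replicate 4 against WT replicate 2. The difference was -0.17 (SE 0.07, adjusted p = 0.0951 in limma), and it passed with the robust intensity trend (adjusted p = 0.0479 in limma) and with array weights (0.0349).

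Neither atrial light chain passed the test with all arrays. Myl4 (cluster 10381798), the atrial and fetal essential light chain, read 12.51, 12.46, 12.27 and 11.00 in WT and 12.85, 12.92, 12.64 and 12.81 in KO hearts. All KO hearts were higher than all WT hearts, and WT replicate 4 lay far below the other WT hearts. With all arrays the difference was 0.74 (SE 0.28, 95% interval 0.12 to 1.37) and did not pass (adjusted p = 0.0822 in limma). Without WT replicate 4 it was smaller, 0.39, and passed (adjusted p = 0.00982 in limma). Array weights gave 0.91 (adjusted p = 0.0287 in limma).

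Myl7 (cluster 10384044), the atrial regulatory light chain, read 10.69, 10.96, 10.15 and 8.72 in WT and 9.87, 10.18, 9.08 and 9.93 in KO hearts. WT replicates 1 and 2 were the highest of the 8 hearts and WT replicate 4 the lowest, so the groups overlapped and the difference of -0.36 (SE 0.43, 95% interval -1.31 to 0.58) did not pass (adjusted p = 0.602 in limma). Without WT replicate 4 it was -0.83 (adjusted p = 0.0450 in limma), but it was only -0.09 without WT replicate 2 (0.916), -0.14 without KO replicate 3 (0.863) and -0.18 without WT replicate 1 (0.839). Array weights gave -0.05 (adjusted p = 0.939 in limma).

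Some other atrial genes, but not all, varied widely from heart to heart. The WT SD was 3.25 for Bmp10 and 1.01 for Mybphl, but 0.14 for Kcnj5, 0.17 for Pam and 0.21 for Sln, atrial genes described below. Mybphl, an atrial relative of myosin-binding protein H, read 8.17, 8.20, 7.92 and 6.09 in WT and 7.99, 8.14, 7.43 and 7.85 in KO hearts. Bmp10, a trabecular and right atrial growth factor named after its values were seen, read 9.76, 4.03, 9.78 and 4.26 in WT and 10.21, 10.78, 4.85 and 9.06 in KO hearts. Bmp10 was thus near the limit for dim genes (4.50) in WT replicates 2 and 4 and KO replicate 3 and high in the other hearts. The sources used here do not state how much atrial tissue each heart carried. In RNA from whole hearts, fewer cells of a type and less RNA per cell cannot be told apart.

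Differences taken within each array set the atrial genes against each other in the same heart. Myl4 minus Myl7 was 1.83, 1.51, 2.12 and 2.28 in WT and 2.98, 2.75, 3.55 and 2.88 in KO hearts. No value overlapped, WT replicate 4 included, and the shift was 1.11 (1.22 without WT replicate 4). Myl4 minus Nppa ran from -0.25 to -0.04 in WT and from 0.08 to 0.22 in KO hearts, a shift of 0.24 (0.19 without WT replicate 4). Myl7 minus Nppa ran from -2.53 to -1.61 in WT and from -3.48 to -2.67 in KO hearts, a shift of -0.87 (-1.03 without WT replicate 4). Against Mybphl the shift of Myl7 was -0.62 with no overlap (-0.59 without WT replicate 4). That of Myl4 was 0.49 with overlapping groups, the overlap being that of WT replicate 4 alone, and 0.63 with no overlap without it. These ratios were chosen after the heart-to-heart pattern was seen and carry no test.

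Fits with an atrial gene as a covariate, added after seeing the data, gave values of the same direction. With Nppa level the difference of Myl7 was -1.17 (adjusted p = 0.00346 in limma) and that of Myl4 was 0.18 (adjusted p = 0.0894). With Mybphl level the difference of Myl7 was -0.62 (adjusted p = 0.00787 in limma) and that of Myl4 was 0.57 (adjusted p = 0.000197). The size for each light chain therefore depended on which atrial gene stood for the atrium, and Nppa and Mybphl did not pass the test themselves. The Mybphl difference was 0.26 with all arrays and -0.24 without WT replicate 4 (adjusted p = 0.711 and 0.299 in limma).

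**Figure D3:**
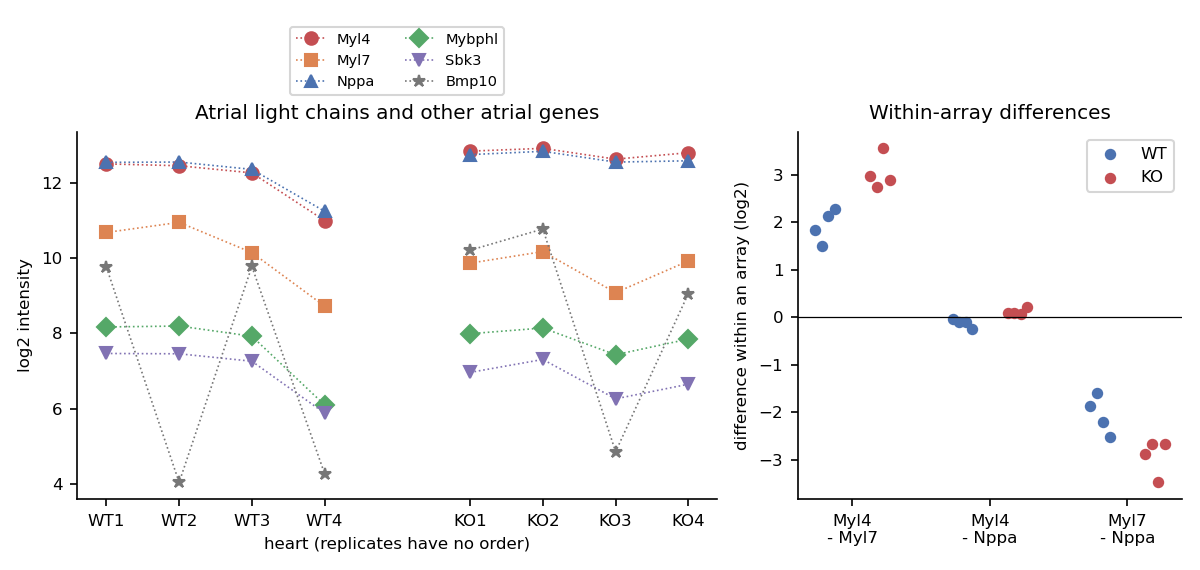
Left, log2 intensity in each of the 8 hearts of Myl4, Myl7, the atrial genes Nppa, Mybphl and Bmp10, and Sbk3. Lines join hearts of a group only to guide the eye. WT replicate 4 is low in all 6 genes, but Sbk3 was picked for a profile like that of Myl7 and Bmp10 after its values were seen. The low values of Sbk3 and Bmp10 there therefore carry no weight. Bmp10 is low in WT replicate 2 and KO replicate 3 as well. Right, differences within an array for 3 pairs of genes, WT in blue and KO in red. The groups do not overlap for any of the 3 pairs, with Myl4 minus Myl7 between 1.51 and 2.28 in WT and between 2.75 and 3.55 in KO hearts.

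Of the 12 atrial genes tested, 2 rose, 1 fell and 9 did not pass, with a median difference of 0.13. The share that passed is near the 24.6% of all genes tested. Sln, the atrial calcium pump inhibitor sarcolipin, rose by 0.76 (adjusted p = 0.00196 in limma), and Pam, which amidates peptide hormones and is abundant in atrial granules, rose by 0.34 (adjusted p = 0.0137). Kcnj5, a subunit of the acetylcholine-activated potassium channel, fell by 0.95 (adjusted p = 1.10e-05 in limma), while its partner Kcnj3 differed by -0.19 and did not pass (0.245) until WT replicate 4 was left out (-0.30, adjusted p = 0.0297). The summed intensity of the list was 6013 to 11707 in WT and 10425 to 14347 in KO hearts, WT replicate 4 being the lowest. Of the 6 ventricular genes 5 fell, with a median of -0.49, where 13.9% of all genes tested fell. Irx4, which keeps ventricular identity, fell by 1.14 (adjusted p = 2.61e-05 in limma), Kcne1, a potassium channel subunit, by 1.73 (1.17e-05), Irx5 by 0.61 (0.00224) and the Notch-linked repressor Hey2 by 0.37 (0.00477). Hand1 differed by 0.19 and did not pass (adjusted p = 0.0908 in limma). The part of the ventricular genes' shift in the light chain values was not tested.

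Profiles across the 8 arrays were compared for the 3 myosin genes whose values ranged over at least 1 log2 unit, by the root mean square difference after subtracting each gene's WT mean. For Myh7b the nearest were Hdac3 (0.14), Rbfox1 (0.15), Hsd17b7 (0.16), Tmc7 (0.16) and Cacna1g (0.17). As only the WT mean was subtracted, these are genes with a fall of like size, from -1.54 (Hdac3) to -1.41 (Cacna1g). Their nearness is not a measure of shared variation between hearts. For Myl4 they were Nppa (0.18), Tmem163 (0.27), H2-Eb1 (0.33), Pnmt (0.33) and Zfp991 (0.34). Those of Myl7 were Sbk3 (0.25), Zfp442 (0.40), Fgf12 (0.45), Podn (0.47) and Mybphl (0.48). Sbk3 read 7.46, 7.46, 7.26 and 5.88 in WT and 6.96, 7.31, 6.26 and 6.65 in KO hearts, low like Myl7 in WT replicate 4 and KO replicate 3. This likeness follows from how the gene was picked.

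Much of the myosin set sits near the top of the array's range. The highest intensity on any array was between 13.76 and 14.02 in log2 units, and 5 of the 9 myosin genes were among the top 1% of genes by WT level. Of the 14 genes at or above 13 in WT, 0 passed and the SD of their differences was 0.05, with 57.1% showing no overlap. In the bin from 12 to 13, which holds Myh6, Myl2, Myl3 and Myl4, 31.1% passed with an SD of 0.18. The share was 43.3% between 11 and 12, where Mybpc3 lies, 44.4% between 10 and 11 (Myl7 and Mylk3), 36.4% between 8 and 9 (Myh7) and 30.0% between 7 and 8 (Myh7b). Myl4, at a WT mean of 12.06, had the largest difference of the 90 genes in its bin, 0.74. This difference did not pass (adjusted p = 0.0822 in limma), and it was 0.39 without WT replicate 4, which lowers the WT mean. Whether probes of the brightest genes were saturated was not tested.

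**Figure D4:**
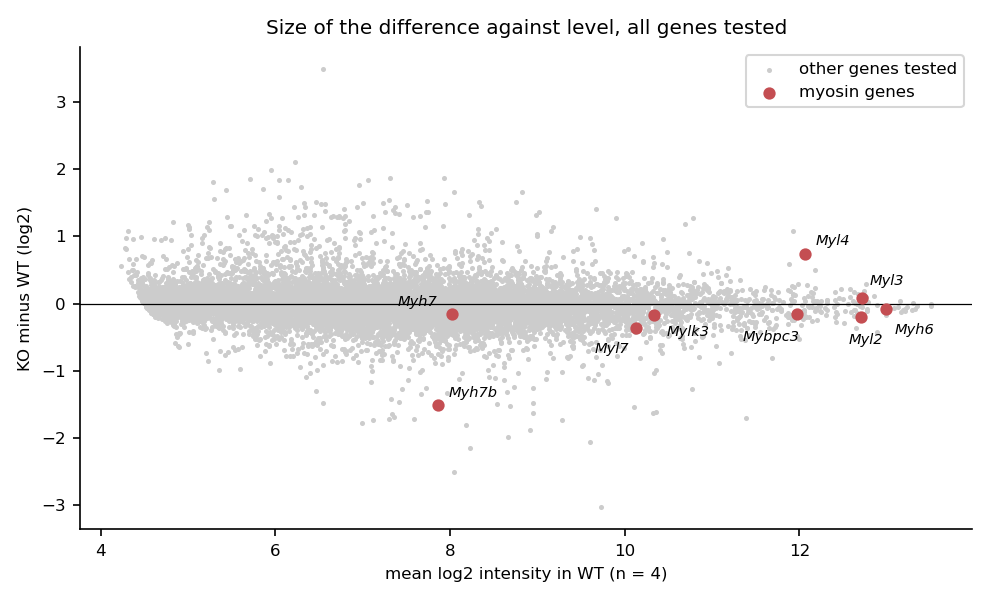
KO minus WT difference (log2) against the mean WT level (log2 intensity, n = 4) for all 14950 genes tested, with the 9 myosin genes in red. The spread narrows at the top, to an SD of 0.18 between 12 and 13 and 0.05 above 13. Myl4 lies outside it at 0.74, a difference that did not pass and was 0.39 without WT replicate 4. Myh7b is far below 0 at a middle level.

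Of other myosin chains 3 of 12 tested passed, near the 24.6% of all genes. Of 10 further sarcomeric chains, from skeletal and fetal muscle, 6 were below the dim filter and 1 of the 4 tested rose: Myl6b, a slow muscle and non-muscle essential light chain, by 0.31 (adjusted p = 0.0164 in limma), from a low WT level of 5.03. Skeletal Myl1 differed by -0.14 and perinatal Myh8 by -0.08, and neither passed (adjusted p = 0.551 and 0.390 in limma), though Myl1 was -0.30 without WT replicate 4 (adjusted p = 0.0361). The Myl6b call was lost without KO replicate 1 (adjusted p = 0.0537 in limma). Of 8 smooth muscle and non-muscle chains 2 rose: Myl6 by 0.28 (adjusted p = 0.00756 in limma) and Myh9, non-muscle heavy chain IIA, by 0.27 (0.0192). Averaging over clusters ended both calls (Myl6 0.14, adjusted p = 0.337; Myh9 0.18, adjusted p = 0.149 in limma). The Myh9 call was lost too without WT replicate 3 or 4 or KO replicate 1 or 3 (adjusted p = 0.0541, 0.0507, 0.0569 and 0.0545 in limma). The non-muscle regulatory chains Myl12a and Myl12b differed by 0.16 and 0.12 without passing (adjusted p = 0.0517 and 0.209 in limma), and Myl12a passed without WT replicate 2 (0.0406) or KO replicate 2 (0.0492).

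Markers of other cells differed between the groups beside these non-muscle chains. All 10 macrophage markers rose, with a median of 1.36, and their summed intensity was 2789 to 3139 in WT and 6389 to 8347 in KO hearts. Aif1 among them had a WT mean of 4.32, below the dim filter, which it passed only through its KO mean of 4.98. Its place in this count therefore carries no weight. Of 8 fibroblast markers 3 rose (summed intensity 7286 to 7746 and 7583 to 8442), and 0 of 6 endothelial and 0 of 6 smooth muscle markers changed. Cardiomyocyte markers summed to 54951 to 55310 in WT and 51103 to 52465 in KO hearts, and 2 of the 7 fell. Of all genes tested, 10.8% rose and 13.9% fell. The part of these marker shifts in the myosin values was not tested.

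Several genes that phosphorylate, bind, fold or degrade myosin changed. Mylk4, a striated muscle relative of Mylk3, read 10.88, 10.78, 10.97 and 10.75 in WT and 10.02, 10.12, 10.04 and 10.05 in KO hearts and fell by 0.79 (adjusted p = 1.06e-05 in limma). Of the 11 kinase, phosphatase and binding protein genes tested, 3 rose and 2 fell, where 10.8% of all genes tested rose and 13.9% fell. Mybpc1, the slow skeletal binding protein C, rose by 0.39 (adjusted p = 0.00765 in limma) at a low level. Its WT mean of 4.35 lay below the dim filter, which it passed only through the KO mean of 4.74, so this call and its place in the count carry no weight. The fast skeletal form Mybpc2 fell by 0.40 (adjusted p = 0.0264 in limma). The Mybpc2 call was lost without WT replicate 4 or KO replicate 1, 3 or 4 (adjusted p = 0.0642, 0.0721, 0.0579 and 0.0681 in limma). Ppp1r12b, the targeting subunit of cardiac myosin phosphatase, rose by 0.20 (adjusted p = 0.0223 in limma), a call lost without WT replicate 1 (0.0612) or WT replicate 3 (0.0538). The catalytic subunit Ppp1cb and the smooth muscle targeting subunit Ppp1r12a differed by -0.03 each, and neither passed (adjusted p = 0.808 and 0.730).

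Of the 7 folding and turnover genes 3 fell and 1 rose, where 13.9% of all genes tested fell and 10.8% rose. Between 9 and 10 on the log2 scale in WT, where most of the 7 lie, 40.3% of genes passed. Unc45b, the chaperone that folds striated muscle myosin heads, read 9.21, 9.25, 9.20 and 9.21 in WT and 8.69, 8.74, 8.73 and 8.80 in KO hearts and fell by 0.48 (adjusted p = 5.16e-05 in limma). Smyd1, its partner in myosin assembly, fell by 0.23 (adjusted p = 0.0142 in limma). Trim55, the ubiquitin ligase MuRF2 of the sarcomere, fell by 1.12 (adjusted p = 6.18e-06 in limma), whereas its relative Trim63 (MuRF1) differed by 0.09 and did not pass (0.719). Fbxo32, the atrophy ligase atrogin-1, rose by 0.51 (adjusted p = 0.00553 in limma), and the chaperone Hsp90aa1 differed by 0.24 without passing (0.166).

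Among 23 transcription factors and cofactors known to act on cardiac myosin genes, 12 fell, 1 rose and 10 did not pass, with a median of -0.14. The share that fell stands beside 13.9% of all genes tested. Most of the 23 lie between 8 and 11 on the log2 scale in WT, where 36.4% to 44.4% of genes passed in either direction. Irx4 and Hey2 are also counted among the ventricular genes above. Myocd, the serum response factor coactivator myocardin, read 9.90, 9.90, 9.71 and 9.70 in WT and 8.64, 8.68, 8.60 and 8.60 in KO hearts and fell by 1.18 (adjusted p = 1.42e-06 in limma). Tbx20, a T-box factor of the chambers, fell by 0.44 (adjusted p = 0.000366 in limma), and Hopx, a homeodomain cofactor that restrains serum response factor, by 0.48 (0.00117). Mef2a and Tead1 differed by -0.04 and 0.04 and did not pass (adjusted p = 0.621 and 0.648 in limma).

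Some factors whose motifs were searched in the promoters, and the cofactor gene Med13, were read as well and are named after their values were seen. Gata4 fell by 0.50 (adjusted p = 0.00175 in limma), the thyroid hormone receptor gene Thra by 0.31 (0.00141) and Srf by 0.21 (0.0141). Med13, a Mediator subunit and known target of the Myh6 microRNA, fell by 0.14 (adjusted p = 0.0415 in limma), a call that passed in 7 of 19 alternatives and in 0 of 8 fits with an array left out. Mef2d, whose protein binds the MEF2 site, rose by 0.24 (adjusted p = 0.00454 in limma), and the second thyroid hormone receptor gene Thrb differed by -0.09 and did not pass (0.218). Promoter matches and these values stand side by side only as descriptions.

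**Figure D5:**
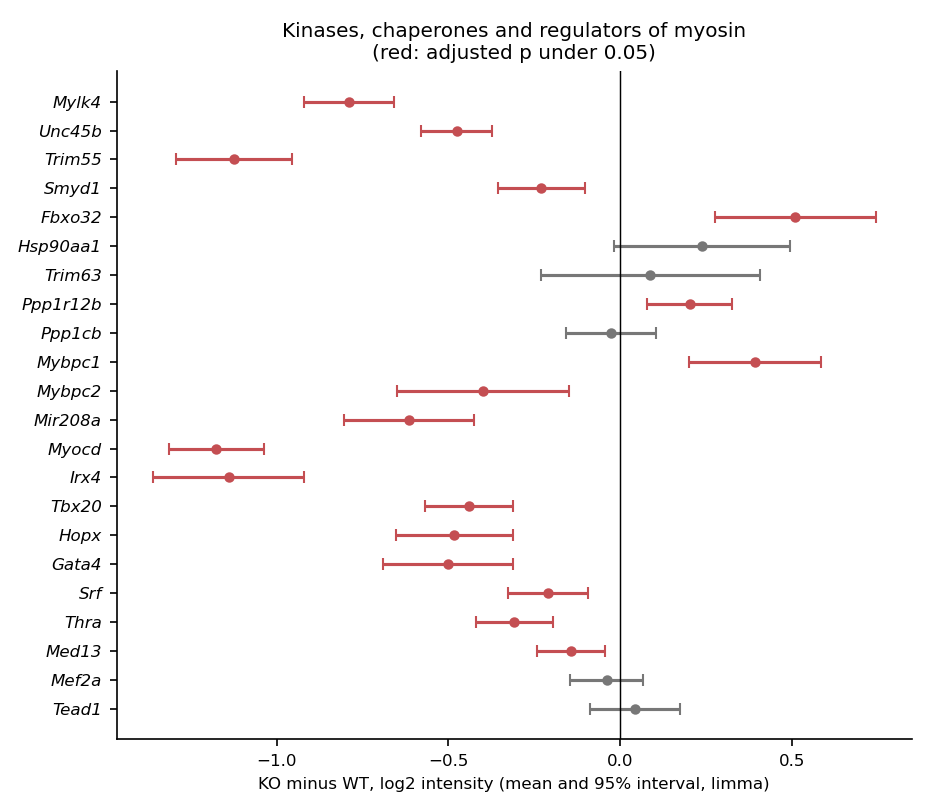
KO minus WT difference (log2) with 95% intervals from limma (n = 4 per group) for 22 genes that phosphorylate, bind, fold, degrade or regulate myosin, with those past an adjusted p of 0.05 in red. Trim55, Myocd and Irx4 lie below -1, Mylk4 at -0.79, and Fbxo32 is the highest at 0.51. Mybpc1, at 0.39, passed the dim filter only through its KO values.

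The microRNA genes were read through their own transcript clusters. Mir208a, within Myh6, read 7.45, 7.34, 7.29 and 7.13 in WT and 6.83, 6.52, 6.63 and 6.78 in KO hearts. No value overlapped, and Mir208a fell by 0.62 (SE 0.08), to 65.3% of WT (adjusted p = 0.000495 in limma), and passed in 19 of 19 alternatives. Its host differed by only -0.08, and Mir208a minus Myh6 within each array shifted by -0.54 with no overlap of the groups. Myh6 lies near the top of the array's range, where differences spread less (SD 0.18 between 12 and 13, against 0.28 between 7 and 8). Whether this narrowed the Myh6 difference was not tested. Mir499, within Myh7b, lay below the dim filter at 3.72 ± 0.15 in WT and 3.37 ± 0.22 in KO hearts (SD, n = 4) and was not tested. Mir208b was not analysed here. The array does not tell the mature strands printed above from their precursors or from overlapping host RNA, so the Mir208a value is uncertain as a measure of the microRNA.

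Other filament genes gave the setting for the myosin values. Of 8 thick and thin filament genes 2 fell and 0 rose, a share passing near the 24.6% of all genes tested. Myom2, an M-band protein that links thick filaments, fell by 1.71 (adjusted p = 7.71e-08 in limma), and cardiac troponin C, Tnnc1, by 0.28 (0.00154). Myom2 read 11.51, 11.33, 11.39 and 11.33 in WT and 9.67, 9.76, 9.62 and 9.70 in KO hearts. Actc1 and Tnnt2 differed by -0.04 and 0.01 and did not pass (adjusted p = 0.561 and 0.931 in limma), with the sign of Tnnt2 turning under median centring and without KO replicate 1.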

How the data were processed

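Whole-heart RNA of 4 WT and 4 KO mice was measured, 1 array per mouse, the labels calling the hearts biological replicates. The authors deposited 1 intensity per transcript cluster and array on a linear scale. Partek and RMA are named in the submitters' processing notes without version or role. The sources used here do not state annotation, build, rescaling or scan batches, and scanner files were not analysed here.

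Of 27541 clusters, 21631 carried 1 gene symbol, 1317 several and 4593 none, and 21544 of the first were matched by Entrez ID to a RefSeq table of GRCm38.p6. The brightest cluster was kept for each of 19933 genes (951 had several). A filter on dim genes, at the 25th percentile of the mean over all 8 arrays (intensity 22.6, log2 4.50), left 14950. Deposited intensities were taken to log2 with no further normalisation and fitted with limma 3.58.1 (lmFit, eBayes, 6 residual degrees of freedom, two-sided) in R 4.3.3. P-values were adjusted by Benjamini-Hochberg over all genes tested, at a threshold of 0.05. Dixon's ratio marked outlying arrays. Figures used matplotlib 3.10.9 and Python 3.11.15.

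The fit was tested on simulated data of 14950 genes, where 87% of the 1.5-fold changes and 97% of those of 2-fold were found and 10 of 194 calls were false. The simulated noise was normal and independent, with no outlying array, and far fewer genes were changed than passed in the data. Recovery of differences as small as those of Myl2 and Mybpc3 was not tested.

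Alternatives were quantile normalisation, median centring, no dim filter, a stricter one (50th percentile), intensity trend with robust variances, array weights, a pseudocount of 16, averaged clusters, a replicate block and leaving out each array. Nppa or Mybphl level as a covariate was added after seeing the data. The myosin genes and the lists were chosen with earlier results of these data known. The text names Hdac3, Nppa, Sln, the 9 myosin genes, from each list up to 4 changed genes (by p) and up to 2 others with the highest level, and the 5 genes nearest in profile to widely ranging myosin genes. Precision is limited by 4 arrays per group.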

Additional observations from a re-analysis of the deposited data

Results flagged for a closer look

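Among 138 groups of 4 arrays, for 69 of the genes the text draws on, 9 held an array far from the other 3 by Dixon's ratio. Of these, 2 were among the 18 groups of myosin genes. Chance gives about 1 in 20.

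For Myl4, WT replicate 4 read 11.00 against 12.27 to 12.51 in the other WT hearts. The same array was lowest for Nppa, at 11.25 against 12.37 to 12.56, and for Mybphl, at 6.09 against 7.92 to 8.20. It was lowest too for Sbk3, picked for its likeness to Myl7, at 5.88 against 7.26 to 7.46. It was the highest WT array for Myh8, at 5.11 against 4.98 to 4.99. Myl7 was also lowest there, at 8.72, without reaching the critical value. For Myh7b, WT replicate 2 read 7.56 against 7.94 to 8.01, still far above the KO hearts, and the same array was lowest for Mybpc1, at 4.07 against 4.41 to 4.47. KO replicate 4 was lowest of its group for Smyd1, at 10.25 against 10.42 to 10.43, and for Hdac3, at 8.50 against 8.59 in each other KO heart.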

How the results depend on the processing

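Of the differences of the 9 myosin genes under 19 alternatives, 144 kept their direction and side of the threshold, 16 lost a call, 11 gained one and 0 turned in sign. The count of changed myosin genes, 3, was 6 with intensity trend and robust variances, 5 with array weights and 1 with a replicate block. It was 5 with Mybphl level as a covariate, while with Nppa level only Myh7b and Myl7 passed. The count ran from 1 to 5 when 1 array was left out. The labels state no pairing by replicate number. Deviations of same-numbered WT and KO hearts correlated at -0.04, 0.03, -0.04 and 0.08, and those of differently numbered hearts from -0.23 to 0.23. With 4 arrays per group these values cannot decide whether samples were paired. The replicate block, which leaves fewer residual degrees of freedom, left 3382 of 14950 genes changed against 3683. That total stayed within 1.5 times under every alternative run, from 2869 without KO replicate 1 to 4529 with array weights. Of the changed genes 43.8% were higher in KO, 46.7% after quantile normalisation and 39.5% after median centring. Signs turned for genes near 0 or atrial in pattern: with Nppa level as a covariate Fgf12 (0.14) gave -0.43, Mybphl (0.26) -0.57 and Tmem163 (0.40) -0.070. With Mybphl level Fgf12 gave -0.035. With 1 array left out Fgf12 ran from -0.20 (without WT replicate 4) to 0.32 and Mybphl from -0.24 (without the same array) to 0.46. Array weights gave 0.054 for Sbk3 (-0.22) and 0.011 for Ppp1cb (-0.03), which ran from -0.048 to 0.026 with 1 array left out. Ppp1r12a (-0.03) gave 0.0087 with quantile normalisation, Trim63 (0.09) ran from -0.022 to 0.23 with 1 array left out, and Tnnt2 (0.01) gave -0.0039 with median centring and ran from -0.0062 to 0.027 with 1 array left out. Myl3 (0.08) was 0.02 with quantile normalisation. The cause was not tested. With 4 arrays per group and no detection calls, small differences of bright genes are the least certain, and whether bright probes were saturated was not tested.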
